A study of Mus musculus with 6 samples.

Results

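The genes of cholesterol synthesis and its sterol control were followed in mouse KMT2A-MLLT3 leukemia cells into which DOT1L, a histone H3 lysine 79 methyltransferase, had been introduced. The set was 29 named genes, of which 18 encode enzymes on the path from acetyl-CoA to cholesterol. The other 11 encode the SREBP factors and their regulators (5 genes), the sterol carrier Stard4, and the LXR receptors with 3 genes that LXR is known to induce. All 29 were found by symbol among 49585 gene IDs, and all 29 had enough counts to be tested, among 15812 genes tested in all.

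RNA-seq was available for 6 libraries of an acute myeloid leukemia driven by the fusion KMT2A-MLLT3. Marrow of moribund mice was transduced with DOT1L, and populations with low and high expression were separated by sorting. Cells were grown in DMEM with serum, interleukin 3, interleukin 6 and stem cell factor, and RNA was taken 3 days after the sort. NT, DOT1L Low and DOT1L High, as the groups are labelled, had 2 libraries each, 1 from K3117 and 1 from K3174, which are treated here as 2 leukemias because each number occurs once under every label. All groups share the fusion and the culture. The labels do not expand NT, do not say whether NT cells were transduced or sorted, and give no strain, age, promoter of the DOT1L construct or number of mice, so differences from NT can hold handling as well as DOT1L. If the K numbers are not separate mice, the p-values describe the spread of these 6 samples alone, which may be technical.

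Cells build cholesterol from acetyl-CoA through mevalonate, isoprenoid units, squalene and a series of sterol ring changes. SREBP transcription factors, held in the endoplasmic reticulum by SCAP and INSIG proteins when sterols are plentiful, are processed and induce these enzymes when sterols are scarce. LXR receptors act on the other side of the balance: they bind oxysterols and induce exporters such as ABCA1 and ABCG1. Dividing leukemia cells are known to need cholesterol and isoprenoids for membranes and for lipid-modified proteins.

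Total counts per library were between 22908445 and 33265848. Levels are in CPM, the counts divided by the TMM-scaled library size and scaled to a common depth. Dot1l was counted in NT, Low and High at 127.8, 183.7 and 149.8 CPM in K3117 and at 158.0, 152.0 and 136.4 CPM in K3174, so its counts did not follow the labels, and the mouse gene need not include the introduced construct. The leukocyte marker Ptprc was at 246.5 to 341.6 CPM. Of 6 leukemia and progenitor markers, 2 rose in High over NT (Kit and Mpo) and 3 fell (Hoxa9, Meis1 and Cd34), and in Low over NT Kit and Mpo rose and Meis1 fell. Hoxa9, a target of the fusion, was at 271, 215 and 169.7 CPM in NT, Low and High of K3117 and at 272, 202 and 154 CPM in K3174, and Mpo, the myeloperoxidase gene, at 30.5, 579 and 913 CPM and at 526, 1989 and 2118 CPM. Markers listed at 0 in every library were 4 of 6 for B and T cells and 2 of 6 for stroma and endothelium. In the latter list the stromal gene Pdgfrb was at 11.03 to 17.8 CPM, and the endothelial and leukocyte gene Pecam1 at 113.9 to 213 CPM. Summed levels of 10 late neutrophil genes went from 32.6 and 151.8 CPM in NT to 168 and 1385 CPM in Low and 1733 and 7263 CPM in High (K3117 and K3174), with 9 of the 10 past the limit in both comparisons. The part of these shifts in the sterol gene results was not tested. In bulk RNA, fewer cells of a type and less RNA per cell cannot be told apart.

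The synthesis genes were expressed in every library. Per kilobase of exon, the mean level over the 6 libraries was highest for Insig1 (62.5 CPM per kb), Cyp51 (58.4), Srebf2 (55.2), Mvd (52.1) and Acat2 (51.0). The lowest levels per kilobase were those of the LXR group, with Nr1h3 at 0.270 CPM per kb, Abca1 at 0.700 and Abcg1 at 1.92, and of Fdps at 2.28. Fdps, which makes farnesyl diphosphate, also matches several processed pseudogenes at 90% identity or more. One of these, Gm3571 (98.9% identity over 1062 bases), held 4150 counts over the 6 libraries against 1649 for Fdps itself, so the level of Fdps is uncertain.

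To show what the promoters of these genes look like, 150 bases upstream of the start are given for 5 of the 6 members that passed a test between labels and have a RefSeq promoter window, and for Hmgcs1, the only member with a match to the sterol element searched. Sequences are from RefSeq (GRCm38.p6), written 5′ to 3′ on the gene's strand. Capitals mark matches to 3 motifs searched on both strands: TCACNCCAC, the core of a sterol regulatory element; CCAAT, the CCAAT box, which reads ATTGG on the other strand; and GGGCGG, the GC box, which reads CCGCCC on the other strand. CCAAT boxes bind the factor NF-Y and GC boxes bind SP1, and both factors are known partners of SREBP. For Hsd17b7, which has no RefSeq start at the GENCODE start, the run ends at the GENCODE start, 36 bases before the RefSeq one. Tm7sf2, the remaining member with a window, is not printed because its GENCODE start leaves fewer than 150 bases of the window upstream.
Hmgcs1 (chr13:119690201-119690350, plus strand): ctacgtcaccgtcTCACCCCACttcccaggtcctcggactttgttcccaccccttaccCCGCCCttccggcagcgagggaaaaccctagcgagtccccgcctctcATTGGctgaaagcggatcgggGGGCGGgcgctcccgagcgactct
Mvd (chr8:122443423-122443572, minus strand): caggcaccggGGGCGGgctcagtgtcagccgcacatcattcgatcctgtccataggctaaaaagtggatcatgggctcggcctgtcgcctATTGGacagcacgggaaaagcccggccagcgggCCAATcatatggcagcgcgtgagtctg
Nsdhl (chrX:72918371-72918520, plus strand): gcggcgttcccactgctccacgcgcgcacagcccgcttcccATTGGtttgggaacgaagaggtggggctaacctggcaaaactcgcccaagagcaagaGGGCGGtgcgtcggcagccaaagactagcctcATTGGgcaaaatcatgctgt
Hsd17b7 (chr1:169969242-169969391, minus strand): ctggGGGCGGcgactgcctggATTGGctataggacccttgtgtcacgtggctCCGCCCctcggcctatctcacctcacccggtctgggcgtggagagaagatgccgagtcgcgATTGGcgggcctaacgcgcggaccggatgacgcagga
Sc5d (chr9:42264301-42264450, minus strand): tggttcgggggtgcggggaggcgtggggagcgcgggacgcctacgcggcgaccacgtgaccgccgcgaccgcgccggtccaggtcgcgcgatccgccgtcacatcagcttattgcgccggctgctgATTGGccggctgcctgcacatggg
Abca1 (chr4:53159896-53160045, minus strand): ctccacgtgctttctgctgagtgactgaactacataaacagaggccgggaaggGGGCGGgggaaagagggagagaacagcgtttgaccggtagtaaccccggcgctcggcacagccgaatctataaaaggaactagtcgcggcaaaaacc

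The synthesis genes shared the CCAAT box. Of 15 synthesis genes with a promoter window of 300 bases (250 before and 50 after the start), 14 held a CCAAT box (93.3%), against 41.1% of all 27025 genes with a window and 42.8% of the 10355 genes tested here. A GC box was present in 14 of the 15 (93.3%), against 38.2% of all genes and 66.5% of the genes tested. Among 9 control genes with a window, 5 held a CCAAT box and 7 a GC box. The sterol element core occurred in 1 of the 24 member genes with a window, against 1.44% of all genes. Windows were matched for 24 of the 29 members. A match describes these letters in this window and is not a bound site.

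A subset of the cholesterol synthesis enzymes was higher in the libraries labelled High than in NT. The largest estimates were those of Fdps, Mvd and Nsdhl, and the estimate for Fdps is uncertain because of its pseudogene copies. Of the 29 genes, 10 rose and 0 fell at a Benjamini-Hochberg adjusted p under 0.05 in the quasi-likelihood test of edgeR, fitted with leukemia as a blocking term. Over all 15812 genes the same test called 10.0% higher and 7.32% lower. Of the 18 synthesis genes 8 rose (2 of 7 up to farnesyl diphosphate and 6 of 11 from squalene on), and of the 11 control genes 2 rose. The median log2 fold change was 0.33 for the synthesis genes and 0.17 for the control genes, against -0.01 for all genes tested. Without the K3117 High library the synthesis median was 0.10 and fewer members passed. Without the K3174 NT library the synthesis median was 0.53 and more members passed. Without the leukemia as a block, 1 of the 29, Nsdhl, passed (adjusted p = 0.032), and 493 of all 15812 genes did. With library scaling by upper quartile factors the median of all genes moved to -0.11, and the share of calls that were higher went from 57.8% to 43.9%. With these factors 9 of the 29 genes rose, beside 2953 genes called in either direction over all genes.

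In the mevalonate steps the genes that rose were Mvd and Fdps. Both were picked by a test on these same libraries, so the order of the libraries given for them is no further support. Mvd, the decarboxylase that makes isopentenyl diphosphate (ENSMUSG00000006517.5; GRCm38 chromosome 8, 122433601 to 122443422, minus strand), had NT, Low and High levels of 52.2, 109.5 and 126 CPM in K3117 and of 73.7, 111 and 108 CPM in K3174 (the order used for all genes below). Both NT libraries lay below all 4 libraries with DOT1L. High exceeded NT by a log2 fold change of 0.91 ± 0.16 (SE; 1.88-fold, 95% interval 1.47 to 2.39; edgeR adjusted p = 0.0020). Fdps (ENSMUSG00000059743.12; chromosome 3, 89093588 to 89101959, minus strand) was at 4.39, 8.14 and 10.98 CPM in K3117 and at 7.92, 11.4 and 14.9 CPM in K3174. Within each leukemia the order was NT, Low, High, and both High libraries were above both NT libraries. Its log2 fold change was 1.11 ± 0.19 (2.15-fold; edgeR adjusted p = 0.0020). Summed with 3 counted pseudogene copies, the level was 25.1, 34.0 and 44.2 CPM in K3117 and 36.2, 51.8 and 50.3 CPM in K3174, which has the K3174 Low library above the High one. For the pseudogene Gm3571 alone the High over NT change was 0.54 ± 0.17 (edgeR adjusted p = 0.047). The copies Gm5873 (0.43 ± 0.23, edgeR adjusted p = 0.25) and Gm8163 (0.12 ± 0.41, edgeR adjusted p = 0.9) did not pass. Reads may be shared among these loci, so the call of Gm3571 is not separate evidence for Fdps.

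The remaining mevalonate genes did not pass in High over NT. They were Acat2 (thiolase), Hmgcs1 (HMG-CoA synthase), Mvk and Pmvk (the kinases of mevalonate and of phosphomevalonate) and Idi1 (isopentenyl diphosphate isomerase), with log2 fold changes of 0.09, 0.10, 0.15, 0.31 and 0.20. Hmgcs1 was at 172, 245 and 233 CPM in K3117 and at 231, 278 and 194 CPM in K3174. In K3117 the High library was above NT, and in K3174 it was below. Acat2 (102.6, 144.9 and 143 CPM in K3117; 131, 152 and 105 CPM in K3174) had the same pattern. Mvk, at 27.1, 41.0 and 38.2 CPM in K3117 and 36.6, 39.9 and 32.2 CPM in K3174, had it as well. For Pmvk (45.4, 61.2 and 67.3 CPM; 44.8, 58.1 and 45.8 CPM) and Idi1 (75.4, 95.1 and 96.8 CPM; 98.5, 133.5 and 100.7 CPM) the K3174 High library returned to within 0.03 of its NT on the log2 scale.

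The genes that rose from squalene on are described next. Where their NT libraries lay below the others, the genes had been picked by a test on these same libraries, so this is no further support. Nsdhl, the sterol 4-carboxylate dehydrogenase that removes methyl groups from the ring (ENSMUSG00000031349.4; chromosome X, 72918557 to 72958514, plus strand), was at 39.8, 73.3 and 84.1 CPM in K3117 and at 47.5, 82.7 and 78.3 CPM in K3174. It had the smallest p of the synthesis genes for High over NT, with a log2 fold change of 0.90 ± 0.13 (1.87-fold, 95% interval 1.53 to 2.28; edgeR adjusted p = 0.00056). Fdft1, squalene synthase (ENSMUSG00000021273.9; chromosome 14, 63145150 to 63179578, minus strand), was at 50.03, 80.3 and 95.3 CPM in K3117 and at 66.6, 96.5 and 95.4 CPM in K3174. The 2 High libraries were nearly equal and above both NT libraries. Its change was 0.72 ± 0.13 (1.65-fold; edgeR adjusted p = 0.0025). Exons of Fdft1 overlap those of the cathepsin gene Ctsb on the other strand, and because use of strand in the counting is not given in the sources used here, their reads may not be separated. Ctsb itself changed by 0.44 ± 0.12 in High over NT (edgeR adjusted p = 0.023) and by 0.03 ± 0.12 in Low over NT (adjusted p = 0.98).

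Sqle, squalene epoxidase, a rate-limiting step after squalene (chromosome 15, 59315077 to 59331192, plus strand), was at 113, 195 and 198 CPM in K3117 and at 149, 210.5 and 195 CPM in K3174. Low and High libraries lay together above NT, with a change of 0.60 ± 0.13 for High over NT (edgeR adjusted p = 0.0074). Hsd17b7, the 3-ketosteroid reductase that acts after Nsdhl, was at 25.1, 43.9 and 51.7 CPM in K3117 and at 46.3, 61.1 and 57.5 CPM in K3174. Low of K3117 was below NT of K3174, while both High libraries exceeded both NT libraries, with a change of 0.67 ± 0.17 (edgeR adjusted p = 0.015). Sc5d, lathosterol oxidase, was at 72.0, 107 and 124 CPM in K3117 and at 92.1, 130 and 110.0 CPM in K3174. All 4 libraries with DOT1L were above NT, and the change was 0.52 ± 0.14 (edgeR adjusted p = 0.025). Tm7sf2, a sterol C14 reductase (chromosome 19, 6062821 to 6068373, minus strand), was at 20.5, 33.9 and 30.0 CPM in K3117 and at 18.4, 27.6 and 23.5 CPM in K3174. It was highest in Low in both leukemias, and its change for High over NT was 0.45 ± 0.14, close to the limit (edgeR adjusted p = 0.049, and 0.059 in DESeq2). Exons of Tm7sf2 overlap those of Vps51 on the same strand, which held 5757 counts against 4451 for Tm7sf2, so their reads may not be separated. Vps51 itself changed by 0.12 ± 0.15 in High over NT and by 0.11 ± 0.15 in Low over NT. Without the K3117 High library, Fdft1 (adjusted p = 0.069), Sqle (0.14), Hsd17b7 (0.26), Tm7sf2 (0.36) and Sc5d (0.49) missed the limit.

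Msmo1 (methylsterol monooxygenase), Lss (lanosterol synthase), Dhcr7 (7-dehydrocholesterol reductase) and Cyp51 (lanosterol demethylase) did not pass in High over NT, with changes of 0.35, 0.23, 0.16 and 0.14. Cyp51, one of the most abundant synthesis transcripts, was at 203, 281 and 259 CPM in K3117 and at 247, 325 and 232 CPM in K3174. Lss was at 92.7, 144.5 and 142 CPM in K3117 and at 146, 173 and 131 CPM in K3174, and Dhcr7 at 76.5, 122.5 and 117 CPM and at 113, 118 and 92.9 CPM. For all of Cyp51, Lss and Dhcr7 the K3117 High library lay above NT and the K3174 High library below it. Msmo1 (109, 150.3 and 156.5 CPM in K3117; 125, 167 and 140.1 CPM in K3174) was above NT in both, and High over NT missed the limit (edgeR adjusted p = 0.081). Ebp, the sterol isomerase, was the synthesis gene with a negative estimate (-0.17 ± 0.14, edgeR adjusted p = 0.47). It was at 49.8, 49.0 and 50.8 CPM in K3117 and at 55.6, 49.4 and 42.9 CPM in K3174. The 95% interval of its fold, 0.722 to 1.09, does not reach the 1.87-fold rise of Nsdhl.

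**Figure D1:**
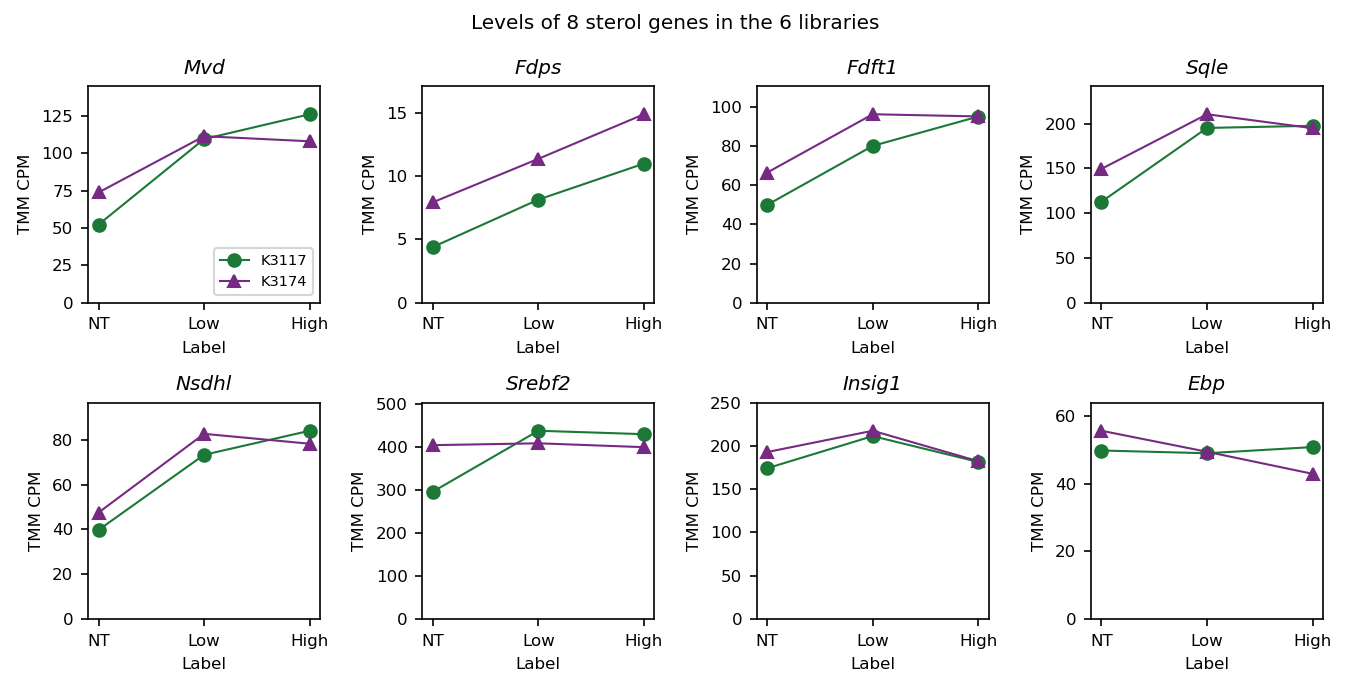
Levels of 8 sterol genes in TMM CPM (vertical axis, from 0) under the labels NT, Low and High (horizontal axis), with 1 point per library and lines joining the 3 libraries of K3117 (circles) and of K3174 (triangles). Mvd, Fdft1, Sqle and Nsdhl have both NT libraries lowest, while Srebf2 is low only in the K3117 NT library (296 CPM) and Ebp stays between 42.9 and 55.6 CPM.

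The libraries labelled Low also had higher synthesis genes than NT, with fewer calls past the adjusted limit but a larger median estimate than in High over NT (0.44 against 0.33). Of the 29 genes, 5 rose and 0 fell in Low over NT, all 5 among the 18 synthesis genes, where over all genes 2.05% were called higher and 1.29% lower. The synthesis median was 0.44 and the control median 0.04, against -0.01 for all genes tested. This comparison shares its NT libraries with High over NT, so the estimates for each gene are given side by side and are not independent. At an unadjusted p under 0.05 in edgeR, 14 of the 18 synthesis genes were higher and 0 lower, beside 995 higher and 1102 lower of all 15812 genes. In High over NT 9 of the 18 were higher and 0 lower at that limit, beside 2455 higher and 2089 lower of all genes. For Low over NT, DESeq2 called 8 of the 18 past the adjusted limit, beside 588 of all genes.

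Nsdhl again had the smallest p, with a log2 fold change in Low over NT of 0.84 ± 0.13 (1.79-fold, 95% interval 1.47 to 2.18; edgeR adjusted p = 0.0047). Mvd changed by 0.82 ± 0.16 (edgeR adjusted p = 0.016) and Tm7sf2 by 0.66 ± 0.14 (edgeR adjusted p = 0.029). For Sqle the value was 0.64 ± 0.13 (edgeR adjusted p = 0.019) and for Fdft1 0.61 ± 0.13 (edgeR adjusted p = 0.029). Fdps (0.70 ± 0.19, edgeR adjusted p = 0.084), Hsd17b7 (0.59 ± 0.16, 0.085), Sc5d (0.53 ± 0.14, 0.071) and Msmo1 (0.44 ± 0.13, 0.090) had positive estimates that missed the limit in edgeR. DESeq2 placed Hsd17b7, Sc5d and Msmo1 under it. With either Low library left out most or all of these calls were lost, and with K3174 NT left out more genes passed. The estimate for Nsdhl was 0.79 without K3174 Low, 0.9 without K3117 Low and 0.96 without K3174 NT. For Mvd the values were 0.88, 0.78 and 1.13. Without the leukemia as a block 0 passed, as for all 15812 genes.

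**Figure D2:**
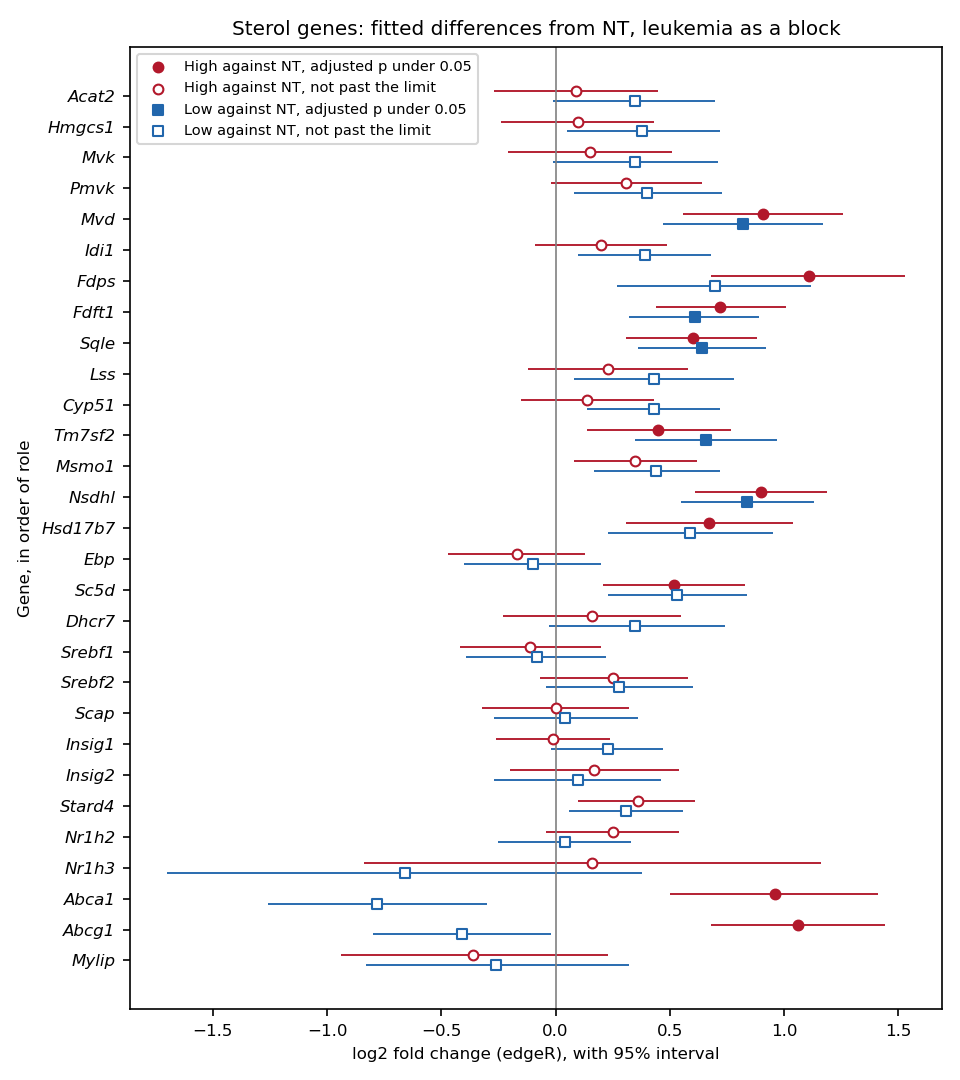
Fitted log2 fold changes over NT (horizontal axis) with 95% intervals for the 29 genes (vertical axis, in order of role), for High (circles) and Low (squares), filled where the adjusted p was under 0.05. Synthesis genes from Acat2 to Dhcr7 lie right of 0 for both labels except Ebp, while Abca1 and Abcg1 lie right of 0 for High and left of 0 for Low.

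No synthesis gene passed between the Low and High populations. In High over Low, 0 of 18 synthesis genes passed in edgeR or DESeq2, with a median of -0.09 and a range from -0.29 to 0.41, and 1 (Cyp51, -0.29 ± 0.13) had an unadjusted p under 0.05. The sign of that median rested on single libraries: it was -0.28 without K3117 High and 0.08 without K3174 High. Over all genes 4.12% were higher and 1.35% lower in High. For Srebf2 the 95% interval of the High over Low fold was 0.784 to 1.22, and for Ebp 0.773 to 1.17. The 2 genes that passed were Abca1 and Abcg1, both higher in High.

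Within each leukemia nearly all synthesis genes were above NT in Low, while the High libraries of the leukemias stood differently against their NT. With log2 CPM differences within K3117, 17 of 18 synthesis genes were higher in Low than in NT (median 0.62) and 18 of 18 in High (median 0.59). In K3174, 17 of 18 were higher in Low (median 0.41), and 11 of 18 in High (median 0.10). From Low to High, 11 of 18 genes went up in K3117 (median 0.04) and 1 of 18 in K3174 (Fdps; median -0.24). The medians of all genes tested were between -0.01 and 0.01 in these differences. Summed over the 18 genes the level was 1329, 1985 and 2023 CPM in K3117 and 1729, 2224 and 1799 CPM in K3174. The K3117 NT library thus had the lowest summed level of the 6, and the K3174 High library was near its own NT. Each of these values rests on 1 library per label, with no replicate.

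**Figure D3:**
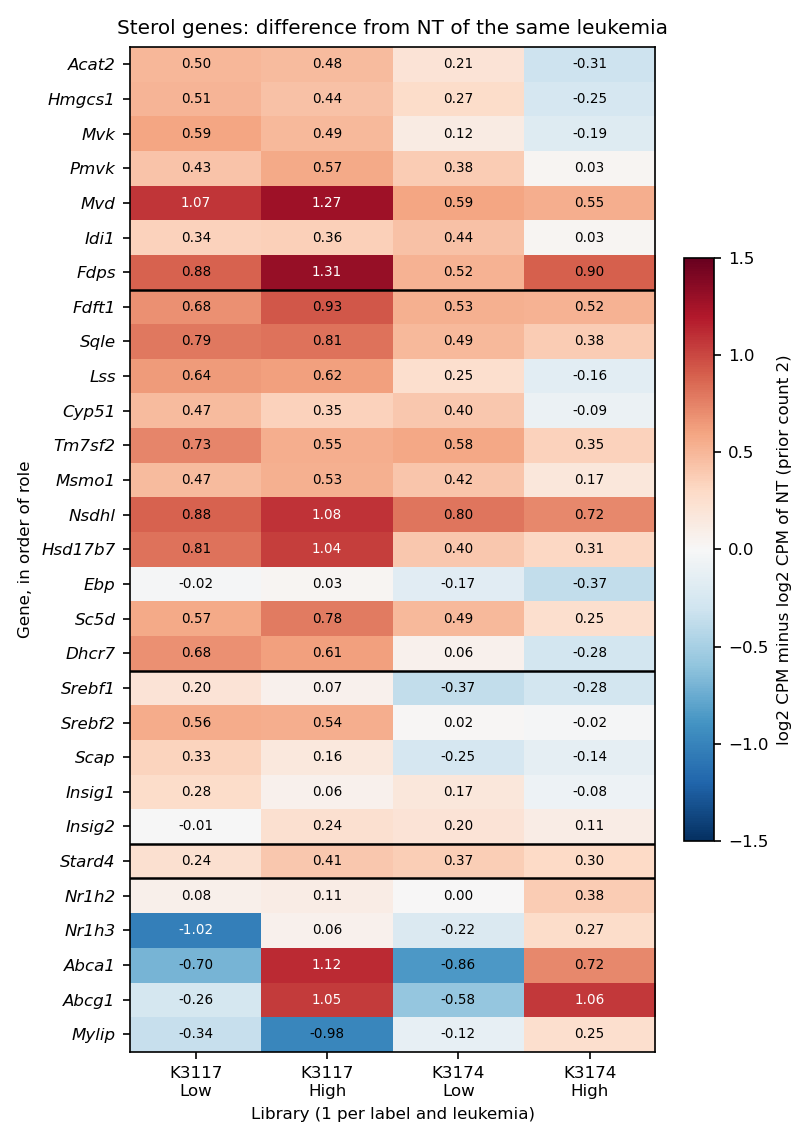
Differences in log2 CPM from NT of the same leukemia for the 29 genes (vertical axis, in order of role, with lines between roles) in each of the 4 libraries with DOT1L (horizontal axis); red is higher than NT, blue lower, with the value in each cell. The synthesis rows are red in both K3117 columns and in K3174 Low, apart from Ebp, and mixed in K3174 High, where Acat2 is at -0.31 and Nsdhl at 0.72.

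Whether the 2 leukemias differed in their response was tested with both DOT1L libraries of a leukemia set against its NT library. Low and High of a leukemia stood in as replicates in this fit, so any difference between them added to the spread. A lack of calls therefore does not show that the responses were equal. No gene of the 29, and 0 of 15812 genes, passed in edgeR (0% higher and 0% lower); DESeq2 called 2 genes, none of the 29. At an unadjusted p under 0.05 the test gave 5 of the 29, all with a lower value in K3174, among 765 genes (4.84%) over the whole table. The 5 were Srebf2, Mvd, Dhcr7, Srebf1 and Hsd17b7. Srebf2 changed by 0.55 in K3117 and 0.00 in K3174, a difference of -0.55 ± 0.14 (unadjusted p = 0.011 and adjusted p = 0.85 in edgeR). For Dhcr7 the values were 0.65 and -0.10, for Mvd 1.17 and 0.57, and for Srebf1 0.14 and -0.32, so that Dhcr7 and Srebf1 had opposite signs in the leukemias. The estimate of the difference was negative for all 18 synthesis genes (median -0.33), and the 18 share the same NT libraries. This was not particular to them. Among other lists described below, it was negative for 16 of 16 fatty acid synthesis genes (median -0.41). The counts were 13 of 15 for sterol uptake, storage and movement (median -0.26) and 5 of 10 for SREBP processing and sterol-linked degradation (median -0.02). Over all 15812 genes 7918 were negative.

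**Figure D4:**
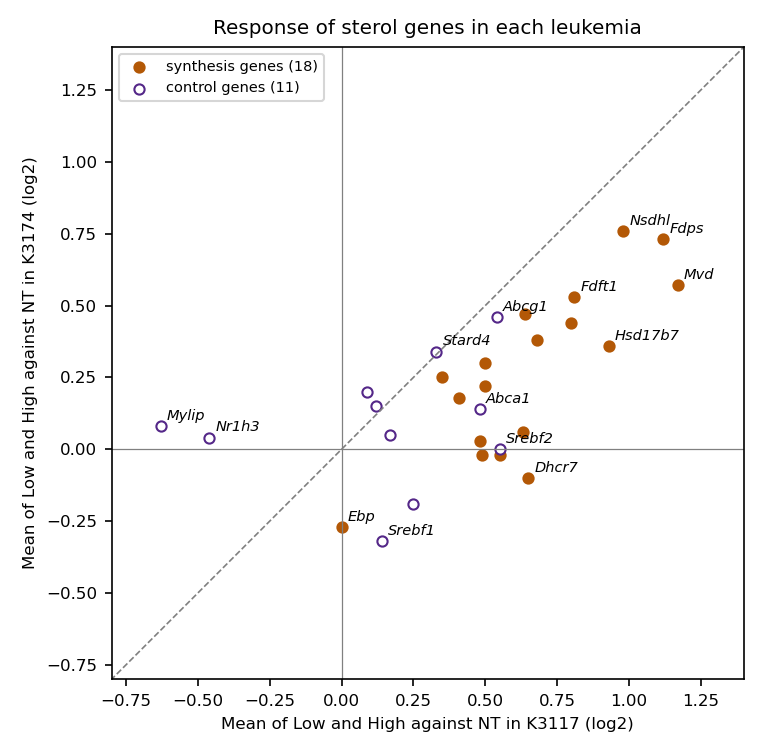
Fitted log2 change of Low and High together over NT for the 29 genes in K3117 (horizontal axis) and in K3174 (vertical axis), with synthesis genes filled and control genes open and the dashed line marking equal change. All 18 synthesis genes lie below the line, Mvd at 1.17 and 0.57 and Nsdhl at the top right, but 0 of the differences passed the adjusted limit.

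The 5 genes that control SREBP did not pass in any comparison of the labels. Over all genes 10.0% were called higher and 7.32% lower in High over NT. The shares were 2.05% and 1.29% in Low over NT, and 4.12% and 1.35% in High over Low. For 5 genes, 0 calls is near these shares. Srebf2, the SREBP factor best known for the cholesterol genes, was at 296, 438 and 430.0 CPM in K3117 and at 404.5, 409 and 399.8 CPM in K3174. The K3117 NT library was low and the other 5 lay close together, with a High over NT change of 0.25 ± 0.15 (95% interval of the fold 0.952 to 1.49; edgeR adjusted p = 0.30). Srebf1, the factor best known for fatty acid genes, was at 223, 256.5 and 235 CPM in K3117 and at 221.5, 172 and 183 CPM in K3174. The Low and High libraries of Srebf1 lay above NT in K3117 and below it in K3174. Scap, the escort that carries SREBP to the Golgi, changed by 0.00 ± 0.14 in High over NT and by 0.04 ± 0.14 in Low over NT. Insig1, which retains that escort and is itself an SREBP target, was at 174, 211 and 181 CPM in K3117 and at 193, 217 and 182 CPM in K3174. It was highest in Low in both leukemias, with -0.01 ± 0.11 for High over NT and 0.23 ± 0.11 for Low over NT (edgeR adjusted p = 0.96 and 0.45). Insig2 was at 12.6 to 16.2 CPM over the 6 libraries.

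Stard4, a soluble carrier that moves sterols between membranes and is induced when sterols are scarce, was at 130, 153 and 172 CPM in K3117 and at 152, 197 and 188 CPM in K3174. Every library with DOT1L was above the NT library of its leukemia. The log2 fold change was 0.36 ± 0.12 in High over NT (edgeR adjusted p = 0.055) and 0.31 ± 0.12 in Low over NT (adjusted p = 0.23), so neither passed.

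Cholesterol exporters of the LXR group, Abca1 and Abcg1, separated High from Low within each leukemia. They too were picked by a test on these same libraries, so the order of their High libraries is no further support. Abca1, which loads cholesterol onto apolipoprotein A1 (ENSMUSG00000015243.4; chromosome 4, 53030787 to 53159895, minus strand), was at 8.99, 5.51 and 19.6 CPM in K3117 and at 2.93, 1.59 and 4.88 CPM in K3174. In both leukemias Low was the lowest and High the highest library. The K3174 High library was below both the NT and the Low library of K3117, so the groups overlap unless the leukemia is taken into account. The log2 fold change was 1.74 ± 0.21 in High over Low (3.33-fold, 95% interval of the log2 value 1.27 to 2.20; edgeR adjusted p = 0.00067) and 0.96 ± 0.21 in High over NT (edgeR adjusted p = 0.0074). Abcg1, which exports cholesterol to lipoprotein particles (ENSMUSG00000024030.6; chromosome 17, 31057675 to 31117988, plus strand), was at 14.7, 12.3 and 30.5 CPM in K3117 and at 7.05, 4.68 and 14.8 CPM in K3174. The order Low, NT, High held in each leukemia, and the K3174 High library was level with the K3117 NT library. Its change was 1.47 ± 0.17 in High over Low (2.77-fold, 95% interval 2.13 to 3.61; edgeR adjusted p = 0.00058) and 1.06 ± 0.17 in High over NT (edgeR adjusted p = 0.0012). In Low over NT both estimates were negative and missed the limit, at -0.78 ± 0.22 for Abca1 (edgeR adjusted p = 0.086) and -0.41 ± 0.18 for Abcg1 (0.34). Without the K3117 High library the High over NT change of Abca1 missed the limit (adjusted p = 0.13), and without the block neither gene passed in either comparison (adjusted p between 0.39 and 0.73).

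The receptors did not pass in any comparison. Nr1h2, which encodes LXR beta, was at 56.8, 60.0 and 61.1 CPM in K3117 and at 51.9, 51.9 and 67.8 CPM in K3174. Nr1h3, which encodes LXR alpha, stayed under 1 CPM in all 6 libraries (0.320 to 0.909 CPM), with 116 counts in total, and at that depth a change could not be resolved (High over NT 0.16 ± 0.46). Mylip, an LXR-induced ubiquitin ligase that marks lipoprotein receptors for degradation, was at 14.6, 11.5 and 7.38 CPM in K3117 and at 7.22, 6.66 and 8.58 CPM in K3174. It did not follow the exporters: the K3117 High library was the lowest of its leukemia and the K3174 High library the highest, and the fitted change was -0.36 ± 0.27 (edgeR adjusted p = 0.44).

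Macrophages express the LXR exporters at high levels, and macrophage markers moved in the same libraries. The summed level of 9 markers was 202, 192.5 and 429 CPM in K3117 and 126, 102 and 246 CPM in K3174. Of 6 markers with enough counts to be tested, 4 rose in High over NT (Adgre1, Mertk, Marco and Csf1r) and 5 in High over Low. In Low over NT 0 passed, but 5 of the 6 estimates were negative (median -0.57). At an unadjusted p under 0.05 in edgeR 4 were lower, beside 1102 of all 15812 genes. Cd68 in High differed from NT by 0.22 in K3117 and by -0.69 in K3174 on the log2 CPM scale. The complement genes C1qa and C1qc were listed at 0 in every library. Csf1r, the receptor for macrophage colony-stimulating factor, was at 89.6, 95.1 and 217 CPM in K3117 and at 43.7, 47.9 and 125 CPM in K3174. High was above the others as for Abca1 and Abcg1. Csf1r was the tested marker whose Low over NT estimate was not negative. On the log2 CPM scale, Low differed from NT in K3117 and K3174 by -0.35 and -0.22 for Adgre1 and by -0.48 and -1.01 for Marco. For Mertk the values were -1.78 and -0.31. Cd68 (0.08 and -0.86) and Mrc1 (-1.93 and 0.70) had opposite signs in the leukemias. The part of macrophage-type cells in the exporter result was not tested.

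**Figure D5:**
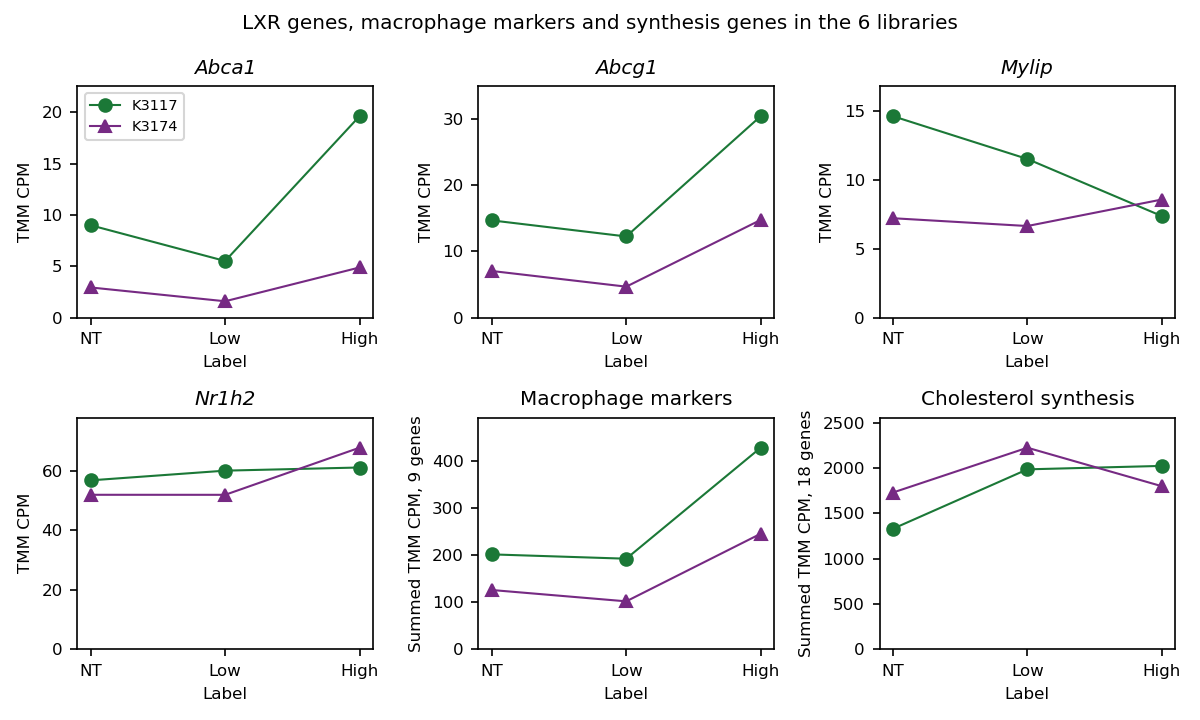
Levels in TMM CPM (vertical axes, from 0) of 4 LXR genes and summed levels of 9 macrophage markers and of the 18 synthesis genes under each label (horizontal axes), with 1 point per library and lines joining the libraries of K3117 (circles) and K3174 (triangles). Abca1, Abcg1 and the macrophage markers peak in High, at 429 CPM for the markers in K3117, while the synthesis sum in K3174 peaks in Low at 2224 CPM.

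Averaged over the labels, the leukemias differed most in the exporters. In K3174 over K3117, 2 of the 29 genes were higher and 2 lower, where over all genes 3.05% were higher and 6.32% lower. Abca1 was lower in K3174 by -1.81 ± 0.17 on the log2 scale (edgeR adjusted p = 4.8e-05) and Abcg1 by -1.16 ± 0.14 (edgeR adjusted p = 0.00030). All 6 tested macrophage markers were lower in K3174 as well, and their part was not tested here either. Fdps (0.58 ± 0.16, edgeR adjusted p = 0.038) and Hsd17b7 (0.50 ± 0.13, edgeR adjusted p = 0.038) were higher in K3174. With either Low library left out, Fdps and Hsd17b7 were no longer called.

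Other genes around the pathway, from lists chosen with earlier results of these data known, moved in both directions. Of 8 enzymes that draw on isoprenoids for other products (prenyltransferases and the dolichol and ubiquinone branches), 0 passed in High over NT or Low over NT. At an unadjusted p under 0.05 in edgeR, 1 was higher and 1 lower in High, and 0 in Low. Over all genes 28.7% in High and 13.3% in Low were under that unadjusted limit. Past the adjusted limit were 10.0% of all genes higher and 7.32% lower in High over NT, and 2.05% and 1.29% in Low over NT. Of 10 genes for SREBP processing and sterol-linked degradation, 1 passed: Pgrmc1, a membrane heme protein that binds the SREBP machinery, fell by 0.57 ± 0.12 on the log2 scale in High over NT (edgeR adjusted p = 0.0077).

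In fatty acid synthesis 3 of 16 genes rose and 2 fell in High over NT, beside 10.0% higher and 7.32% lower over all genes. In Low over NT 0 passed, beside 2.05% higher and 1.29% lower over all genes. At an unadjusted p under 0.05 in edgeR, 3 were higher and 1 lower in Low over NT, and DESeq2 called 1 past the adjusted limit. Acss2, which makes acetyl-CoA from acetate, was at 9.17, 13.3 and 14.9 CPM in K3117 and at 8.93, 11.2 and 15.7 CPM in K3174 (0.76 ± 0.18, edgeR adjusted p = 0.011). Aacs, which activates acetoacetate for lipid synthesis, changed by 0.61 ± 0.15 (edgeR adjusted p = 0.017). Elovl6, the elongase of saturated chains, and Gpam, the first enzyme of glycerolipid synthesis, fell by 0.75 ± 0.16 and 0.61 ± 0.16 (edgeR adjusted p = 0.0056 and 0.019). The median of the list was -0.05, against 0.33 for the cholesterol synthesis genes.

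For uptake, storage and movement of sterols 4 of 15 genes rose and 1 fell in High over NT, beside 10.0% higher and 7.32% lower over all genes. Soat1, which esterifies cholesterol for storage, was at 82.99, 98.8 and 158 CPM in K3117 and at 77.8, 108 and 133 CPM in K3174, in the order NT, Low, High in both (0.85 ± 0.13, edgeR adjusted p = 0.00066). Nceh1, which hydrolyses cholesterol esters, changed by 0.82 ± 0.13 (edgeR adjusted p = 0.00091). Vldlr, a lipoprotein receptor, was at 10.6, 5.51 and 1.65 CPM in K3117 and at 7.97, 1.83 and 0.976 CPM in K3174, and fell by 2.86 ± 0.32 in High over NT and by 1.47 ± 0.28 in Low over NT (edgeR adjusted p = 7.9e-05 and 0.015). Among 8 LXR partners and further LXR targets, 1 rose and 1 fell in High over NT, which is near the shares of 10.0% and 7.32% over all genes. Smpdl3a, a phosphodiesterase induced by LXR, was at 18.4, 20.0 and 38.5 CPM in K3117 and at 9.46, 18.9 and 36.1 CPM in K3174 (1.46 ± 0.21, edgeR adjusted p = 0.00048). Arl4c, also described as an LXR target, fell by 1.04 ± 0.20 (edgeR adjusted p = 0.0034). Of 4 oxysterol enzymes only Cyp27a1, which makes 27-hydroxycholesterol, had enough counts to be tested, and it was lower in K3174 than in K3117 by -2.40 on the log2 scale but did not pass between labels.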

How the data were processed

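RNA-seq was measured in 6 libraries, and the authors deposited whole-number counts per gene, which entered the analysis unchanged. Per the submitters' processing notes, kallisto, STAR, STAR-Fusion, DESeq2 and the build mm10 were used. Which tool counted, with what annotation and strand setting, is not given in the sources used here, so overlapping and near-identical genes may not be separated. Symbols matched 99.5% of IDs. Exon lengths and overlaps are from GENCODE on GRCm38.

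The analysis ran in edgeR 4.0.16 (R 4.3.3): expression filter, TMM factors (0.973 to 1.04), and a quasi-likelihood fit of label plus leukemia to all 6 libraries (2 residual and 9.38 prior degrees of freedom, coefficient of variation 12%). P-values were adjusted by Benjamini-Hochberg over all 15812 genes tested, with a limit of 0.05. Each SE is the absolute log2 fold change over the square root of F. The response difference was fitted as leukemia by DOT1L (Low and High together). Log2 CPM differences used a prior count of 2. The code was tested on simulated counts.

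The leukemia was a block because the titles give each K number once per label. Deviations from the group means correlated at 0.57 (NT and Low), 0.44 (NT and High) and 0.64 (Low and High). Members, roles and lists were chosen with earlier results of these data known. All members were named, in full where they passed between labels, and at most 2 genes per direction of other lists. DESeq2 1.42.0, other scalings, filters, no block and leaving out each library were tried.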

Additional observations from a re-analysis of the deposited data

How the results depend on the processing

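No estimate changed its sign in the alternatives run for the 17 member results past the limit. Without the leukemia as a replicate block, members called were 1 in High over NT, 0 in Low over NT and 0 in High over Low, beside 493, 0 and 0 of all 15812 genes. For Low over NT, DESeq2 called 8 and the table without a filter 13, beside 588 and 1071 of all genes. For K3174 over K3117 the table without a filter called 7, beside 2074 of all genes. With upper quartile factors the control median was 0.08 in High over NT and -0.02 in High over Low. Leaving out 1 library at a time, members called ranged from 4 to 16 in High over NT, 0 to 17 in Low over NT, 2 to 4 in High over Low and 2 to 6 in K3174 over K3117. The control medians then ranged from 0.10 to 0.26 in High over NT, -0.16 to 0.11 in Low over NT and -0.05 to 0.16 in High over Low, and the synthesis median in Low over NT from 0.34 to 0.72 and in High over Low from -0.28 to 0.08. A group left with 1 library was assumed to vary like the others. The response difference had 0 members called in every setting that could be fitted, and leaving out an NT library could not be. The cause of these shifts was not tested. Counts of Nr1h3 were too few to resolve a change.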
